A study of Danio rerio with 3 samples.

Results

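Glycolysis and citrate cycle enzymes were examined in whole zebrafish larvae at 192 h post-fertilization (hpf), after embryos had been exposed to oil emulsion and returned to clean medium. The genes were chosen by symbol, as those whose platform symbol names a glycolytic, gluconeogenic, glycogen-breakdown, pyruvate dehydrogenase, citrate cycle or malate-aspartate shuttle enzyme. The rule gave 70 of the 8793 genes named on the array, read by 91 probe sets (a probe set sums up several short probes for the same transcript as 1 value). Of these 70, 62 encode enzymes or subunits of the pathways named and 8 match by spelling or belong to related proteins. Those 8 are the phosphofructokinase-2 genes pfkfb1, pfkfb2a, pfkfb3 and pfkfb4b, the D-lactate dehydrogenase ldhd, the mitochondrial phosphatase pgam5, the cell-cycle kinase pkmyt1 and the Wnt pathway gene pygo2. The symbol dld is used for dihydrolipoamide dehydrogenase and also, in older zebrafish naming, for delta D. Its entry here was not annotated as delta D, and RefSeq lists the older use as a synonym of another gene, so it was kept.

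The late-window group was exposed from 48 to 96 hpf and the early-window group from 0 to 48 hpf, each to 250 mg of shoreline oil emulsion that coated the cup floor under 30 embryos in 100 ml of medium, and control embryos had no emulsion. The emulsion was collected at the Gulf of Mexico shore after the Deepwater Horizon blowout (Gulfport in the labels) and held alkanes, polynuclear aromatic hydrocarbons, sand and seawater. Late-window larvae then spent 96 h and early-window larvae 144 h in clean medium. Neither the strain nor how many larvae were pooled for an RNA sample is stated in these sources, and each group had 1 array.

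Glycolysis splits glucose into pyruvate in the cytosol, and gluconeogenesis runs most of the same steps backwards in liver with a few enzymes of its own. Pyruvate enters mitochondria, where the pyruvate dehydrogenase complex turns it into acetyl-CoA for the citrate cycle, whose NADH feeds the respiratory chain. Vertebrates carry tissue forms of many of these enzymes, for instance in muscle, liver and brain, and zebrafish often hold a further a and b copy of each.

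All values are log2 expression, and a difference is a log2 difference between 2 arrays. Since each group has a single array, replicate error is unknown and the differences carry neither a test nor a p-value. A rough technical yardstick is the SD of probe sets of the same gene around the mean difference of that gene, which was 0.16 for late window minus control, 0.11 for early window minus control and 0.13 for late minus early. It leaves out the spread between clutches and RNA samples. Both exposed arrays are compared with the same control array, so a gene that reads high or low on that array differs in both comparisons. Differences are relative to the typical gene of each array: hybridisation spike-ins differed from control by 0.0092 on the array of late-window larvae and by -0.50 on that of early-window larvae, so on a spike-in scale every early-window difference would lie about 0.50 higher. In whole larvae, fewer cells of a type and less RNA per cell cannot be told apart. Sequences were not used here.

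A gene was kept when its highest value reached 7.21, the median of all deposited values, which kept 61 of the 70 genes and 5492 of 8793 overall. The 9 genes under this limit read from 3.36 to 7.15. They were eno4, g6pc1a.2, got1l1, idh3g, ldhd, ogdhl, pfkfb2a, pfklb and pkmyt1, and artificial tag sequences with no zebrafish target read up to 6.33, 6.09 and 5.84 on the late-window, early-window and control arrays.

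Most of the central carbon enzymes lay within the size used for counting in all 3 comparisons, as did most of the kept genes. The size used for counting was 0.32 on the log2 scale, which is 25% more or 20% less signal. Of the 61 kept genes, 56 (91.8%) lay within 0.32 in all 3 comparisons, beside 83.7% of all kept genes, and 28 (45.9%) lay within 1.1-fold in all of them, beside 36.2%. The exceptions were the liver glycogen phosphorylase pygl, the enolase eno1b, the lactate dehydrogenase ldhbb, the liver-type pyruvate kinase pklr and the aldolase C gene aldocb. The median difference over the 61 genes was 0.0069 for the late window and 0.0081 for the early window, beside -0.020 and -0.0012 over all 5492 kept genes. Their SD was 0.16 for the late window and 0.18 for the early window, beside 0.23 and 0.17 over all kept genes.

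Against control, the late-window array had 1 of the 61 genes higher by at least 0.32, where 4.9% of all kept genes were, and 1 lower by at least 0.32, where 5.61% were. On the early-window array 2 were higher by at least 0.32, beside 2.02% of all kept genes, and 2 lower by at least 0.32, beside 3.55%. Within 1.1-fold of control were 43 of the 61 genes (70.5%) in the late window, beside 56.1% of all kept genes, and 41 (67.2%) in the early window, beside 66.7%. The early-window shares thus lay near the background, and with so few genes counted the late-window ones are no more than a description. At 1.5-fold, 1 of the 61 genes was higher in the late window, beside 1.11% of all kept genes. The shares of all kept genes past 0.32 given here are also the background for the counts by role and by list below.

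**Figure D1:**
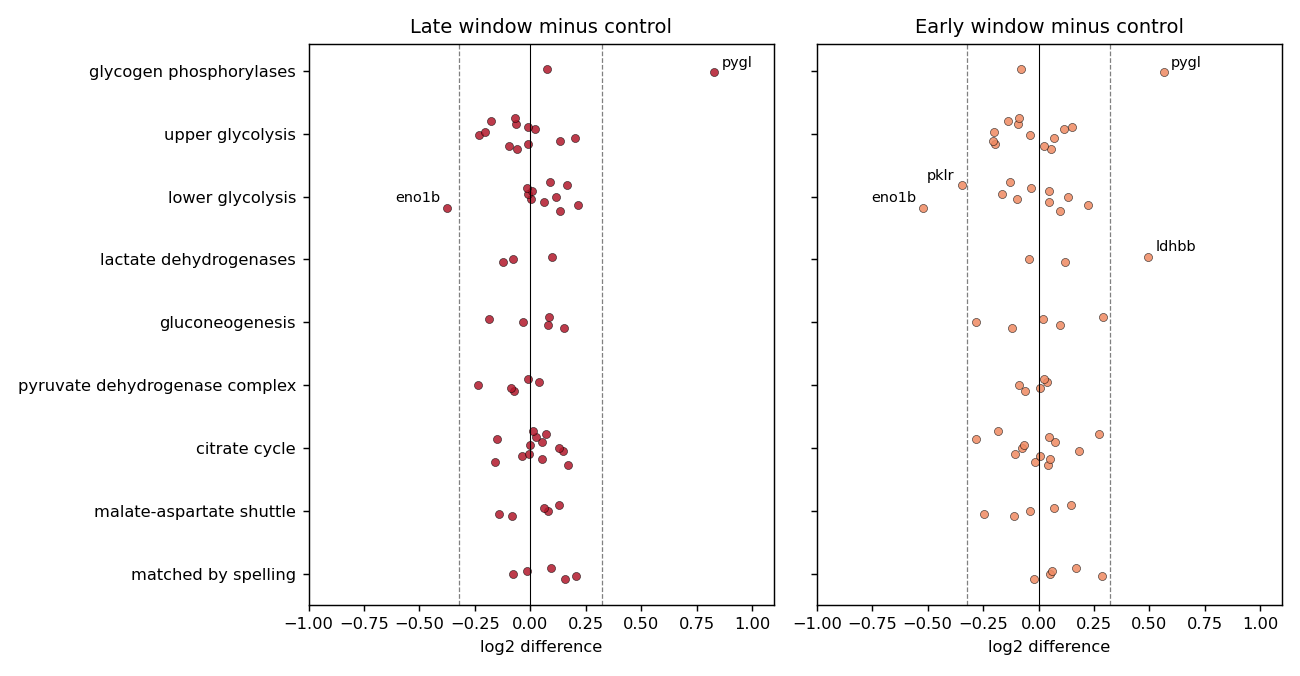
Log2 differences of the 61 kept genes from control, by role (rows), for the late window (left) and the early window (right). Each point is a gene on 1 array pair, dashed lines mark 0.32, and only pygl, eno1b, pklr and ldhbb lie outside them in either panel.

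Glycogen phosphorylase cuts glucose units from glycogen, and pygl is its liver form. The main probe set of pygl read 10.40 in late-window larvae, 10.13 in early-window larvae and 9.56 in controls. Both exposed arrays lay above control, by 1.78-fold in the late window (0.83 on the log2 scale) and 1.48-fold in the early window (0.56). Among 5492 kept genes these were the 29th and 26th highest differences. Its other probe sets, which carry suffixes for probes that match several transcripts, differed by 0.53 and 0.34 in the late window and by 0.38 and 0.36 in the early window. All 3 probe sets thus read higher on both exposed arrays. The muscle form pygmb read 11.01 in late-window larvae, 10.85 in early-window larvae and 10.93 in controls, within 1.1-fold of control on both arrays. Its second probe set differed by 0.18 in the late window, past 1.1-fold, and by -0.11 in the early window.

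Other genes of glycogen turnover did not move as one. Of 24 genes on a list of glycogen turnover other than the phosphorylases, 6 were kept, with medians of 0.0011 in the late and -0.014 in the early window. Higher by at least 0.32 in the late window was 1 of them, phkg2, a catalytic subunit of the kinase that activates glycogen phosphorylase, which read 7.87 in late-window larvae, 7.65 in early-window larvae and 7.49 in controls. Another, ppp1r3b, which targets a phosphatase to glycogen, was the 1 lower by that much in the late window. It read 6.86 in late-window larvae, 7.20 in early-window larvae and 7.24 in controls, close to the filter and over it in controls only. The early window had none of the 6 past 0.32. Phosphoglucomutase pgm1, which passes glucose units from glycogen into glycolysis, differed by 0.30 in the late and 0.085 in the early window.

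Liver markers lay on both sides of control. Of 18 liver markers 13 were kept, and 10 of the 13 lay above and 3 below control in each window. Among all 5492 kept genes, 2492 lay above control in the late and 2726 in the early window. In the late window 2 were higher by at least 0.32 and 0 lower, beside 4.9% and 5.61% of all kept genes. In the early window 4 were higher and 1 lower, beside 2.02% and 3.55%. The 4 were hpxa (1.99) and the fibrinogen genes fgb (0.72), fga (0.71) and fgg (0.60). In controls hpxa read 6.75, under the filter, so it was kept through the exposed arrays. In the late window hpxa differed by 0.58 and the fibrinogen genes by 0.23, 0.24 and 0.18. The liver fatty acid binding gene fabp10a differed by 0.82 in the late and 0.24 in the early window. The 1 lower in the early window was the retinol binding gene rbp4l (-0.52), which differed by -0.21 in the late window. Its relative rbp4 differed by 0.12 in both. Whether rbp4l reads liver in these larvae was not checked, so the counts and medians of this list may hold a gene of other tissue. The other markers below control lay nearer to it than rbp4l. They were tfa (-0.023) and serpina1l (-0.033) in the late window and apoa2 (-0.044) and serpina1l (-0.15) in the early window. The median over the 13 was 0.15 in the late window and 0.22 in the early window, with the log2 of their summed signal at 16.24, 16.18 and 16.13 in late-window, early-window and control larvae. The part of the liver markers in the pygl difference was not tested.

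**Figure D2:**
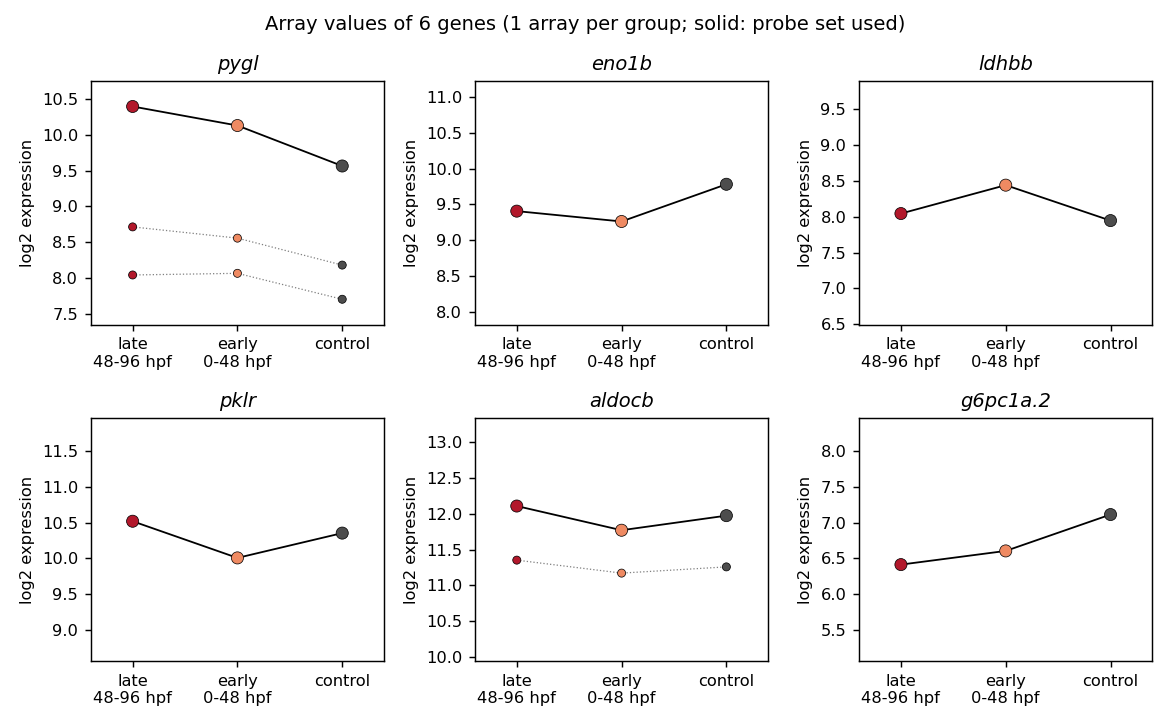
Log2 expression of 6 genes in late-window, early-window and control larvae (1 array each). Large points on solid lines are the probe set used, small points on dotted lines the other probe sets of the gene, and all panels span the same log2 range. All 3 probe sets of pygl are lowest in control, eno1b is highest in control, and g6pc1a.2 is highest in control but dim.

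Gluconeogenesis bypasses the one-way steps of glycolysis with enzymes of its own. The glucose phosphatase subunit g6pc1a.2, which frees glucose for export from liver, read 6.41 in late-window larvae, 6.61 in early-window larvae and 7.11 in controls, all under the filter. It was lower on both exposed arrays, with differences of -0.70 in the late and -0.51 in the early window, from a single probe set and at dim signal, so it entered no count, and on the spike-in scale its early-window value would be level with control. The transporter slc37a4a, which carries the substrate of that phosphatase into the endoplasmic reticulum, read 9.01 in late-window larvae, 8.72 in early-window larvae and 8.51 in controls and was higher by at least 0.32 in the late window, while its copy slc37a4b differed by -0.29 in the late and -0.099 in the early window.

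The remaining gluconeogenic genes stayed within 0.32 of control. Cytosolic phosphoenolpyruvate carboxykinase pck1 read 9.49 in late-window larvae, 9.24 in early-window larvae and 9.52 in controls, with its lowest value in the early window, and pck2, the mitochondrial form, differed by -0.19 in the late and 0.019 in the early window. Pyruvate carboxylase pcxb, which makes oxaloacetate from pyruvate, read 7.25 in late-window larvae, 7.46 in early-window larvae and 7.17 in controls, with its highest value in the early window. Its control value was under the filter, so it was kept through the exposed arrays. The fructose bisphosphatases fbp1a and fbp1b differed by 0.15 and 0.079 in the late window and by -0.12 and 0.098 in the early window. The 5 kept genes thus ranged from -0.19 to 0.15 in the late and from -0.28 to 0.29 in the early window, on both sides of 0.

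The upper part of glycolysis, from glucose to triose phosphates, had none of its 12 kept genes past 0.32 from control in either window. Of all kept genes, 4.9% were higher and 5.61% lower by that much in the late window, and 2.02% and 3.55% in the early window. The median of the 12 was -0.061 in the late and -0.064 in the early window. Below control lay 9 of the 12 genes in the late and 7 in the early window, beside 3000 and 2766 of all 5492 kept genes. The spike-in scale would turn the early-window count round. The hexokinases hk1 and hk2, which trap glucose in the cell, differed by -0.21 and 0.019 in the late window and by -0.20 and 0.12 in the early window. The hk1 probe set used carries a suffix for probes that match several transcripts. A second bright probe set of hk1, without a suffix of that kind, read nearer to control, at -0.037 and -0.072. The glucose phosphate isomerase copies gpia and gpib parted in the late window. There gpia differed by 0.20 and gpib by -0.23, and in the early window they differed by 0.068 and -0.039.

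Phosphofructokinase commits sugar to glycolysis. Its muscle form pfkma read 8.44 in late-window larvae, 8.60 in early-window larvae and 8.45 in controls, and the platelet form pfkpa 9.68 in late-window larvae, 9.65 in early-window larvae and 9.74 in controls. Both stayed within 0.32 of control, and the liver form pfklb was under the filter on all arrays, at 6.54, 6.51 and 6.46 in late-window, early-window and control larvae on its brightest probe set. Its other probe sets, also under the filter, differed by 0.44 and 0.27 in the late and 0.24 and -0.11 in the early window. Triosephosphate isomerase genes tpi1a and tpi1b differed by -0.18 and -0.069 in the late window and by -0.14 and -0.089 in the early window.

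Aldolase splits the phosphorylated sugar into trioses, and its A forms are typical of muscle and its C forms of brain. The A genes aldoaa and aldoab differed by -0.058 and -0.096 in the late window and by 0.056 and 0.025 in the early window. The C gene aldocb read 12.11 in late-window larvae, 11.77 in early-window larvae and 11.97 in controls. Its second probe set read 11.35, 11.17 and 11.26, so both placed the late-window array highest and the early-window array lowest. The other C gene, aldoca, read 7.49 in late-window larvae, 7.31 in early-window larvae and 7.50 in controls, lowest in the early window as well. Neuron and glia markers, 10 of 11 kept, had medians of -0.17 in the late and -0.23 in the early window, with summed signals of 13.99, 13.91 and 14.16 (log2) in late-window, early-window and control larvae. Photoreceptor markers, 7 of 13 kept, had medians of -0.29 and -0.75, with summed signals of 15.18, 14.94 and 15.45. Their part in the aldolase C values was not tested.

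The lower part, from triose phosphates to pyruvate, makes the ATP of glycolysis. Of its 11 kept genes, 1 in the late and 2 in the early window were lower than control by at least 0.32, beside 5.61% and 3.55% of all kept genes. None was higher by as much, beside 4.9% and 2.02%. With so few genes these counts are no more than a description. Enolase eno1b read 9.41 in late-window larvae, 9.26 in early-window larvae and 9.78 in controls. It was lower than control by 1.30-fold in the late window (-0.37) and by 1.43-fold in the early window (-0.52), as read by its only probe set. Its copy eno1a read 12.29 in late-window larvae, 12.25 in early-window larvae and 12.15 in controls, and eno3, the enolase of muscle in mammals, 12.52 in late-window larvae, 12.53 in early-window larvae and 12.31 in controls. These went the other way, by 0.14 and 0.22 in the late window and 0.097 and 0.22 in the early window. On the spike-in scale eno1b in the early window would be level with control, at -0.018.

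Pyruvate kinase makes pyruvate in the last step of glycolysis, and pklr is the form of liver and red cells in mammals. It read 10.52 in late-window larvae, 10.01 in early-window larvae and 10.35 in controls. The late-window array was the highest and the early-window array the lowest of the 3. It was higher than control by 1.12-fold in the late window (0.17) and lower by 1.27-fold in the early window (-0.35), and on the spike-in scale the early difference would turn to 0.15. Its relative pkma read 11.27 in late-window larvae, 11.05 in early-window larvae and 11.18 in controls, with the same order of arrays within a narrower range. Of the 13 kept liver markers, 10 lay above and 3, with rbp4l among them, below control on each array, as given above. Erythroid markers, 4 of 9 kept, had medians of 0.33 in the late and 0.18 in the early window and summed signals of 14.30, 14.30 and 14.06 (log2) in late-window, early-window and control larvae. The largest term of that sum is hbae3. The 4 ranged from -0.17 to 0.46 in the late and from 0.023 to 0.59 in the early window. Exocrine pancreas markers, with 11 of 16 kept, had medians of -0.0059 in the late and -0.62 in the early window and summed signals of 15.62, 15.15 and 15.62. For intestine markers, 10 of 12 kept, medians were 0.062 and -0.11 and summed signals 14.57, 14.30 and 14.43. The 10 ranged from -0.39 to 0.84 in the late and from -0.56 to 0.14 in the early window. Photoreceptor and neuron and glia markers, given above, had early-window medians below 0 too, at -0.75 and -0.23. The part of any of these marker lists in the pklr values was not tested.

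The steps between trioses and enolase were close to control. Glyceraldehyde phosphate dehydrogenase, often used as a reference transcript, was read for gapdh at 14.21 in late-window larvae, 14.20 in early-window larvae and 14.15 in controls. For gapdhs, whose probe sets include 3 array control probe sets, the 4 differences ran from -0.015 to 0.10 in the late and from -0.12 to 0.046 in the early window. Phosphoglycerate kinase pgk1, which makes ATP, read 12.01 in late-window larvae, 11.99 in early-window larvae and 12.03 in controls. The phosphoglycerate mutases pgam1a, pgam1b and pgam2 differed by 0.12, -0.0086 and 0.0069 in the late window and by 0.13, -0.16 and 0.048 in the early window.

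Lactate dehydrogenase links pyruvate to lactate. The B-type gene ldhbb read 8.04 in late-window larvae, 8.44 in early-window larvae and 7.95 in controls, so the early-window array stood 1.41-fold above control (0.49, the 36th highest of 5492 genes) while the late-window array lay near it (0.098). This gene has a single probe set. The other B-type gene ldhba read 11.49 in late-window larvae, 11.52 in early-window larvae and 11.57 in controls, and ldha, the form that predominates in glycolytic muscle, read 9.72 in late-window larvae, 9.97 in early-window larvae and 9.84 in controls. For ldha too the early-window array was the highest and for ldhba all arrays lay within 1.1-fold. Leukocyte markers, 4 of 7 kept, had medians of -0.053 in the late and 0.45 in the early window and summed signals of 9.73, 10.25 and 9.86. The leukocyte markers mpx and coro1a read 7.13 and 7.20 in controls, under the filter, and were kept through the exposed arrays. Cardiac markers, 4 of 8 kept, had medians of -0.24 and 0.20 and summed signals of 13.11, 13.30 and 13.14. The cardiac sum mostly reflects its largest term, myl10, which differed by 0.0037 in the late and 0.15 in the early window. Whether myl10 reads heart in whole larvae was not checked, so the sum and medians of this list may hold signal of other muscle. The other cardiac markers, myl7, cmlc1 and tnnt2a, differed by -0.43, -0.27 and -0.22 in the late window. In the early window these differed by 0.21, 0.28 and 0.18. Liver, erythroid and fast skeletal muscle markers also had early-window medians above 0, at 0.22, 0.18 and 0.043. Those of slow skeletal muscle, photoreceptor, neuron and glia, exocrine pancreas and intestine markers were below 0. The part of any marker list in the ldhbb value was not tested.

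**Figure D3:**
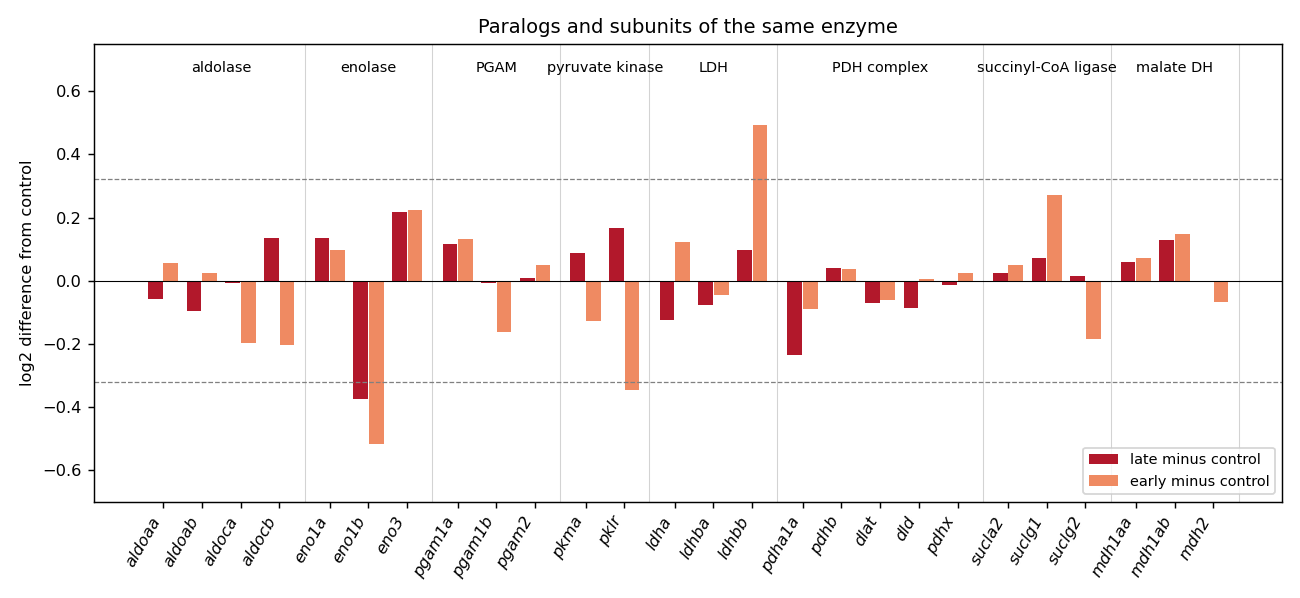
Log2 differences from control for copies and subunits of 8 enzymes, late window (dark bars) and early window (light bars), 1 array pair each, with dashed lines at 0.32. Within the enolases eno1b lies below 0 and eno1a and eno3 above it, and the 5 pyruvate dehydrogenase subunits lie between -0.24 and 0.041.

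Muscle makes up much of a larva, and the enzymes named for their muscle forms stayed within 0.32 of control. Differences were -0.096 for aldoab, 0.0069 for pgam2, 0.22 for eno3, -0.011 for pfkma and 0.076 for pygmb in the late window. In the early window they were 0.025, 0.048, 0.22, 0.15 and -0.080 in the same order. Past 1.1-fold were eno3 in both windows and pfkma in the early window. The muscle-typical aldoaa and ldha differed by -0.058 and -0.12 in the late and by 0.056 and 0.12 in the early window. Fast skeletal muscle markers, 14 of 20 kept, had medians of -0.017 and 0.043, and summed signals of 17.59, 17.64 and 17.61 (log2) in late-window, early-window and control larvae. In the early window 2 of the 14, acta1a (0.41) and tnnt3a (0.37), were higher by at least 0.32, beside 2.02% of all kept genes, and 0 lower. In the late window 0 passed in either direction.

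The pyruvate dehydrogenase complex joins several subunits that work as one. Its E1 alpha gene pdha1a read 9.82 in late-window larvae, 9.96 in early-window larvae and 10.05 in controls, and a second probe set differed by -0.13 in the late and -0.14 in the early window. The E1 beta gene pdhb differed by 0.041 in the late and 0.038 in the early window, the acetyltransferase core dlat by -0.072 in the late and -0.060 in the early window, dld by -0.086 in the late and 0.0058 in the early window, and pdhx, which anchors dld, by -0.012 in the late and 0.024 in the early window. All 5 lay within 0.32 of control, and in the early window within 1.1-fold on the probe sets used. The second pdha1a probe set was past 1.1-fold there.

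Genes that feed or control this complex were few on the array. Of 14 genes on that list 3 were kept. The kinase genes pdk4 and pdk2b, whose products switch the complex off, were dim. The values of pdk4 were 7.08 in late-window larvae, 7.14 in early-window larvae and 7.37 in controls, and those of pdk2b 7.31 in late-window larvae, 7.26 in early-window larvae and 7.49 in controls. Both lay below control by less than 0.32 on both exposed arrays, close to the filter, and pdk4 was over it in controls only. The lipoic acid synthase lias, which makes the cofactor of dlat and dlst, read 8.32 in late-window larvae, 7.89 in early-window larvae and 7.76 in controls and was higher by at least 0.32 in the late window, the only one of the 3 past that size.

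None of the 13 kept genes grouped here under the citrate cycle was past 0.32 from control in either window. The group includes the cytosolic aconitase aco1 but not the cytosolic idh1, which is outside the symbol rule and given below. By that much, 4.9% of all kept genes were higher and 5.61% lower in the late window, and 2.02% and 3.55% in the early window. Medians of the 13 were 0.025 in the late and 0.0081 in the early window, with ranges of -0.16 to 0.17 and -0.28 to 0.27. Citrate synthase cs, the entry step, read 11.59 in late-window larvae, 11.73 in early-window larvae and 11.75 in controls, and was the late-window array's lowest against control among these genes. Cytosolic aconitase aco1, which doubles as an iron regulator, was its highest, at 7.73 in late-window larvae, 7.60 in early-window larvae and 7.56 in controls. The mitochondrial NADP-linked isocitrate dehydrogenase idh2 read 12.92 in late-window larvae, 12.83 in early-window larvae and 12.93 in controls.

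The NAD-linked isocitrate dehydrogenase of the cycle has 3 kinds of subunit. Its catalytic subunit idh3a differed by 0.15 in the late and 0.18 in the early window on the main probe set but by -0.33 and -0.11 on a dimmer one, so its direction depends on the probe set. The subunit idh3b differed by 0.13 in the late and -0.076 in the early window on the main probe set. A dimmer one gave -0.19 and -0.059, so its late-window direction depends on the probe set too. The subunit idh3g read 3.93, 4.01 and 4.10 in late-window, early-window and control larvae, under the brightest tag sequences. The oxoglutarate dehydrogenase genes ogdha and ogdhb differed by 0.051 and -0.15 in the late and 0.072 and -0.28 in the early window, and their partner dlst by 0.052 and 0.053.

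Succinyl-CoA ligase pairs a shared alpha subunit with an ATP- or GTP-forming beta subunit. The alpha gene suclg1 read 11.86 in late-window larvae, 12.06 in early-window larvae and 11.79 in controls, highest in the early window. The GTP-forming suclg2 read 11.01 in late-window larvae, 10.81 in early-window larvae and 10.99 in controls, lowest in the early window. The ATP-forming sucla2 read 11.12 in late-window larvae, 11.14 in early-window larvae and 11.09 in controls. A second probe set of sucla2 differed by 0.019 in the late and 0.20 in the early window. The alpha and GTP-forming genes thus lay on opposite sides of control in the early window (0.27 and -0.18) and beside it in the late window (0.073 and 0.013). Fumarase fh differed by -0.036 in the late and 0.0081 in the early window, and the malate dehydrogenase of the cycle, mdh2, by -0.0010 in the late and -0.067 in the early window.

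Succinate dehydrogenase, a cycle enzyme outside the symbol rule, gave a like picture. Of 10 subunit and assembly genes 6 were kept, with medians of -0.015 in the late and 0.044 in the early window and 0 past 0.32 in either direction. The iron-sulfur subunit sdhb read 11.58 in late-window larvae, 11.61 in early-window larvae and 11.37 in controls, the farthest of the 6 from control in both windows.

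The malate-aspartate shuttle carries reducing power from glycolysis into mitochondria. Its cytosolic malate dehydrogenases mdh1aa and mdh1ab differed by 0.060 and 0.13 in the late window and 0.071 and 0.15 in the early window. Cytosolic aspartate aminotransferase got1 differed by -0.082 in the late and -0.11 in the early window, and the mitochondrial forms got2a and got2b by -0.14 and 0.079 in the late and -0.25 and -0.041 in the early window. The 5 kept genes ranged from -0.14 to 0.13 in the late and from -0.25 to 0.15 in the early window.

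Outside the cycle proper, 2 of the enzymes that draw on its intermediates to make NADPH were higher by at least 0.32 in the late window. Malic enzyme me1 read 9.07 in late-window larvae, 7.87 in early-window larvae and 7.84 in controls, and cytosolic isocitrate dehydrogenase idh1 11.17 in late-window larvae, 10.54 in early-window larvae and 10.65 in controls. A relative of me1, me3, differed by -0.16 in the late and -0.13 in the early window, and the NADP-linked idh2 lay beside control in the late window, as given above. With the glycerol phosphate dehydrogenase gpd1c (0.35 in the late and 0.21 in the early window), me1 and idh1 made 3 of 12 kept genes of that list higher by at least 0.32 in the late window, beside 4.9% of all kept genes, with 0 lower, and in the early window 0 of 12 passed in either direction. In the pentose phosphate pathway 2 of 6 kept genes were higher by at least 0.32 in the late window, pgd (0.93) and taldo1 (0.50), and 1 in the early window, taldo1 (0.35). These lists were written with earlier results of these arrays known, in which me1, pgd and taldo1 already stood out.

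The 5 kept genes matched by spelling or relation lay within 0.32 of control on both arrays. The kinase gene pfkfb3, whose product makes an activator of phosphofructokinase, read 7.80 in late-window larvae, 7.88 in early-window larvae and 7.59 in controls, and its second probe set differed by 0.23 in the late and 0.20 in the early window, so both probe sets read higher on both exposed arrays. Its relatives pfkfb1 and pfkfb4b differed by 0.16 and -0.078 in the late and -0.021 and 0.050 in the early window. The phosphatase gene pgam5 differed by -0.015 in the late and 0.061 in the early window, and pygo2 by 0.093 in the late and 0.17 in the early window, with a second probe set over the filter at 0.16 and -0.14.

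Of 23 regulators of glycolysis and gluconeogenesis listed, which include the pfkfb genes, 9 were kept and 1 was past 0.32. It was the glucocorticoid receptor nr3c1, lower in the late window, at 8.49 in late-window larvae, 8.68 in early-window larvae and 8.97 in controls. The hypoxia-inducible factor genes hif1ab and hif1al differed by -0.071 and 0.26 in the late window and by -0.18 and 0.19 in the early window, and hif1an, an inhibitor of that factor, by -0.28 in the late and -0.27 in the early window. Of 19 glucose and lactate transporter genes 5 were kept. In the late window slc37a4a was the 1 gene higher by at least 0.32 and the monocarboxylate transporter slc16a1b, which moves lactate and pyruvate, the 1 lower, at 7.52 in late-window larvae, 8.10 in early-window larvae and 8.00 in controls. The glucose transporter slc2a3a differed by 0.16 in the late and -0.12 in the early window, and 0 of the 5 passed in the early window.

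The late-window and early-window arrays were also set against each other, which leaves the control array out. In the late window 2 of the 61 genes were higher than in the early window by at least 0.32, beside 4.15% of all kept genes, and 1 was lower by at least 0.32, beside 3.93%. The median was -0.0064, beside -0.014 over all kept genes, and 39 of the 61 (63.9%) were within 1.1-fold, beside 61.1%. The gene farthest up was pklr, 1.43-fold higher in the late than in the early window (0.51). The aldolase C gene aldocb followed at 1.26-fold (0.34), with 0.18 on its second probe set, and on the spike-in scale it would turn to -0.17. The gene farthest down was ldhbb, 1.32-fold lower in the late window (-0.40), and all 3 lactate dehydrogenase genes lay below 0, with ldha at -0.24 and ldhba at -0.034. On the spike-in scale, where the typical gene lies at -0.52 in this comparison, pklr would be level between the windows. Next in size on the upper side were fbp1a (0.27), pygl (0.27) and pck1 (0.25). The gluconeogenic genes lay on both sides of 0, with 2 of the 5 kept above and 3 below, a median of -0.018 and both pck2 and pcxb at -0.20. The 13 liver markers had a median of 0.0025 in the same comparison, with 7 above and 6 below 0. Among all kept genes 2541 lay above and 2951 below 0.

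**Figure D4:**
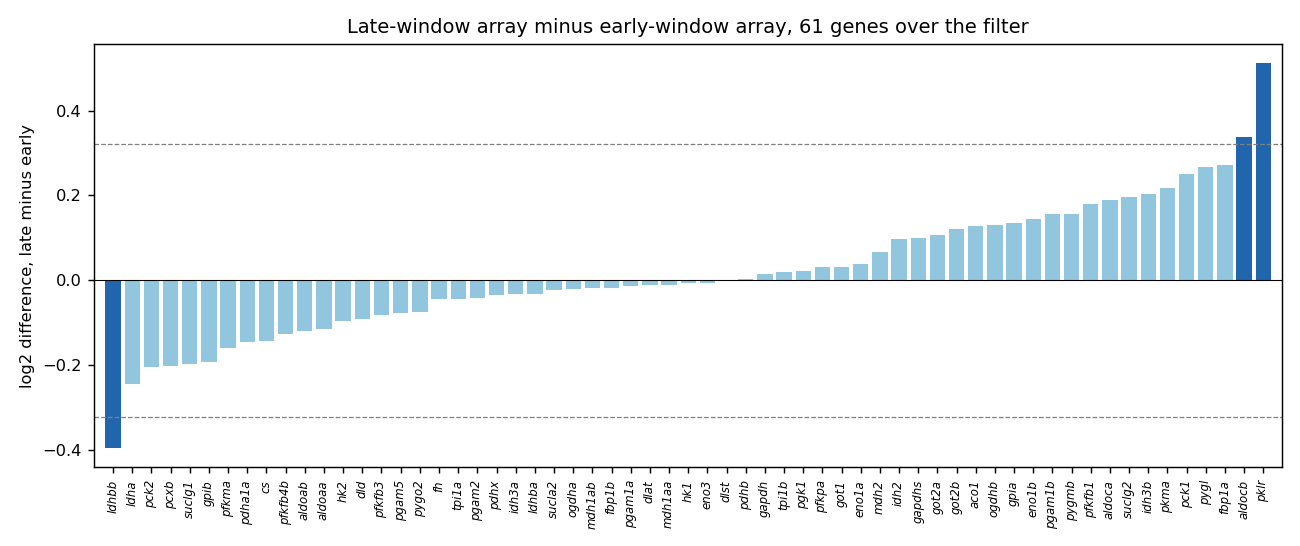
Log2 difference between the late-window and the early-window array for each of the 61 kept genes, in order of size, with dashed lines at 0.32. Only ldhbb lies below the lower line, at -0.40, and only aldocb and pklr lie above the upper one, at 0.34 and 0.51.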

How the data were processed

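Whole-larva RNA was hybridised to Affymetrix zebrafish arrays, 1 each for late-window, early-window and control larvae. The authors deposited a table of 15617 probe sets on the log2 scale, produced with RMA per the submitters' processing notes. That method removes background, equalises the arrays' distributions and summarises each probe set, and tends to compress folds. The program that ran it is not stated in these sources. Values were used as deposited. Probe sets were named through platform annotation of 2016 (10802 with 1 symbol, 135 with several, 4680 with none), and only single symbols were used. All 70 chosen genes matched RefSeq's GRCz12tu gene table by Entrez ID, with 0 symbols changed. Per gene the probe set with the highest mean was used, and genes were kept from 7.21 up in at least 1 array. Genes past 0.32 on the log2 scale were counted, with no test, since each group has 1 array. Pathway enzymes and marker and pathway lists, and the choice of genes, were made with earlier results of these data known. All chosen genes past 0.32, their enzyme families and the pathway list members of largest difference were named. Marker lists were given mainly by medians and summed signals, and many of their genes past 0.32 were not named. Levels of different genes were not compared, and a planned count of promoter motifs was not run. The counting was tested on simulated data. Alternatives were other normalizations, filters, probe-set choices and folds. Python 3.11.15, pandas 2.3.3, numpy 2.4.6, statsmodels 0.14.6 and matplotlib 3.10.9 were used.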

Additional observations from a re-analysis of the deposited data

Results flagged for a closer look

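The pyruvate kinase gene pklr lay on opposite sides of control in the 2 windows by at least 1.1-fold each, at 0.17 in the late and -0.35 in the early window. It was the only one of the 61 kept genes to do so, beside 1.95% of all kept genes (107 of 5492). The difference between the windows was not tested, since each rests on 1 array and 1 probe set.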

How the results depend on the processing

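No paired analysis was possible because each group has 1 array. Medians of the chosen genes stayed between -0.032 and 0.029 in all 3 comparisons under every setting run except scaling on spike-ins, which put them at 0.51 for the early window and -0.52 for late minus early, where the medians of all kept genes were 0.50 and -0.52. On that scale 62 of the chosen genes were kept. Of these, 53 were higher by at least 0.32 and 0 lower in the early window, beside 5139 higher and 9 lower among all kept genes. For late minus early 0 were higher and 53 lower, beside 29 higher and 5180 lower. Most of all kept genes thus passed as well, so these counts say nothing particular about the chosen genes. Scaling on spike-ins turned pklr in the early window to 0.15 and aldocb in late minus early to -0.17. The filter at the 75th percentile left 1 gene higher in the early window (pygl) and 0 lower in late minus early, since ldhbb fell under it. Of all 3017 genes over that filter, 68 were higher in the early window and 143 lower in late minus early. Without a filter 2 genes were lower in the late window, eno1b and g6pc1a.2. With arrays centred on their medians, or with the mean over probe sets, 1 gene (pklr) was higher in late minus early. At 1.5-fold, pygl in the late window was the only count above 0, and at 2-fold all counts were 0. Of all kept genes, at most 1.22% passed 1.5-fold and at most 0.328% passed 2-fold in any comparison and direction. Counts of 0 at these folds thus say nothing particular about the chosen genes. Of 54 recomputed values of the named genes, 45 moved by less than the probe-set SD, 7 moved by more and 2 reversed. Many of the 45 could not move by more. The genes eno1b, ldhbb and pklr have 1 probe set each, so other probe-set choices left their values unchanged. Dropping probe sets with suffixes left pygl and aldocb unchanged too. Centring shifts all genes of a comparison alike, by less than that SD. The 45 are therefore no measure of stability. The mean over probe sets put pygl at 0.57 in the late and 0.43 in the early window. The number of arrays limits the precision, and dim probe sets carry less of it. One such is g6pc1a.2, under the filter on all arrays and near the brightest tag sequence on the late-window array only.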

Other observations

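Some genes of glycogen storage and oxygen sensing, chosen after their values were seen, lay under the filter and entered no count. The glycogen-targeting gene ppp1r3ca read 6.14 in late-window larvae, 6.48 in early-window larvae and 6.96 in controls, differences of -0.81 in the late and -0.47 in the early window, while its copy ppp1r3cb, over the filter, read 9.37 in late-window larvae, 9.37 in early-window larvae and 9.39 in controls. The prolyl hydroxylase gene egln3, a target of hypoxia signalling, read 5.19 in late-window larvae, 5.28 in early-window larvae and 4.87 in controls, at or below the brightest tag sequences, and egln1b, over the filter, differed by -0.14 in the late and -0.14 in the early window. Glutamine synthetase genes glula and glulb, which draw on citrate cycle carbon through glutamate, differed by -0.11 and 0.13 in the late window and by -0.14 and 0.26 in the early window.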
